A study of Mus musculus with 4 samples.

Results

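The 31 genes of the semaphorin family and its receptors were compared between wildtype and Nrf1-mutant retinas of E13.5 mouse embryos. The members were the rows of the count table whose symbol names a semaphorin of classes 3 to 7, a plexin, Nrp1 or Nrp2, and they made up 31 of 24062 genes. Of these, 20 were semaphorins, the ligands, and 11 were receptors, the plexins and the neuropilins. The rule used symbols alone, but the family was picked with earlier results of these data known. RNA-seq was performed on 2 wildtype (WT) libraries and 2 libraries labelled Nrf1-CKO, of the genotype Nrf1 f/f;Six3-Cre, and all 4 came from embryos on a mixed C57BL/6 and 129 background. In the mutant, the Six3-Cre transgene removes a floxed exon of Nrf1, a transcription factor for nuclear genes of mitochondrial function, from proliferating retinal progenitor cells, beginning in the central retina. Each library was made from pooled retinas of multiple littermates, and whether the WT embryos carried the floxed allele or the transgene is not given in the sources used here. The comparison asks whether guidance ligands and their receptors differed in level when Nrf1 was deleted.

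Semaphorins are guidance proteins that mostly repel growing axons and also act on migrating neurons and blood vessels. Class 3 members are secreted and bind neuropilins, which lack a signalling domain of their own and work together with plexins, whereas classes 4 to 7 are held at the membrane and mostly bind plexins directly. In the retina, they are known for steering the axons of retinal ganglion cells (RGCs) out of the eye, for the layering of neurites and for the shaping of the ocular vessels.

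The libraries held between 74577660 and 85933945 reads counted on genes. Nrf1 itself had 9052 and 7789 reads in WT and 8594 and 8284 in the mutant, a log2 fold change of -0.03 (SE, the standard error, 0.07, adjusted p = 0.794, edgeR), but a count over the whole gene does not test the loss of 1 exon. The 7 progenitor markers used, among them Pax6 and Rax, summed to 1914 to 2117 CPM (read counts scaled to library size with edgeR's TMM factors) in WT and to 1904 to 2062 CPM in the mutant, and 0 of 7 were called. Of 10 RGC markers, 8 fell and 1 rose, and their sum was 1526 to 1744 CPM in WT and 469 to 610 CPM in the mutant; the photoreceptor precursor list summed to 407 to 410 and 349 to 353 CPM with 2 of 6 markers lower, and amacrine and horizontal cell markers to 88.7 to 96.1 and 83.5 to 116 CPM with 3 of 6 lower and 2 higher. Markers of cells other than retinal neurons were higher in both mutant libraries. Their sums in WT and mutant were 62.0 to 70.1 and 145 to 146 CPM for endothelium (6 of 7 markers rose), 64.4 to 71.6 and 219 to 264 CPM for macrophages and microglia (7 of 7), 173 to 237 and 328 to 382 CPM for periocular mesenchyme (5 of 7), and 161 to 223 and 409 to 434 CPM for pigment epithelium (5 of 5 tested), in which Rpe65 was at 0 reads in all but WT replicate 2. Lens markers summed to 130.05 and 366 CPM in WT and to 7727 and 3146 CPM in mutant replicates 1 and 2 (7 of 7 rose). The part of these cells in the values below was not tested. In bulk RNA, fewer or more cells of a type and less or more RNA per cell cannot be told apart.

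**Figure D1:**
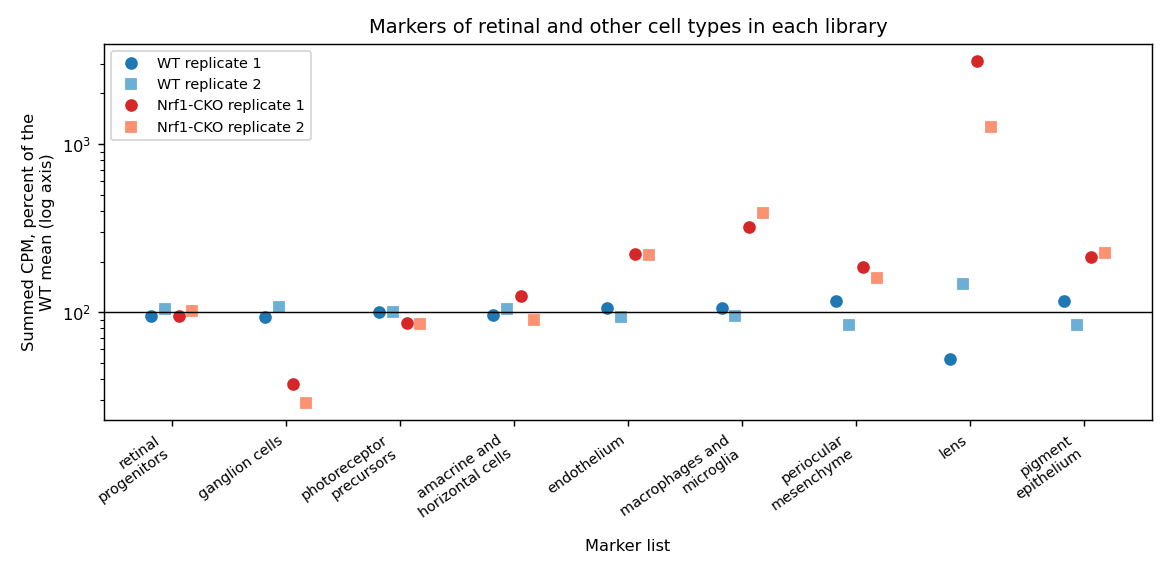
Summed CPM of each marker list as a percentage of the WT mean of that list (log axis), with 1 point per library (blue WT, red mutant; circles replicate 1, squares replicate 2). RGC markers lie at 37.3% and 28.7% of the WT mean in the mutant, whereas markers of endothelium, macrophages and microglia, periocular mesenchyme, lens and pigment epithelium lie above it in both mutant libraries.

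Of the 31 genes, all passed the filter on low counts. In the mutant 7 rose (Nrp2, Plxnd1, Sema3a, Sema3b, Sema3d, Sema3g and Sema5a), 4 fell (Nrp1, Plxnc1, Sema4a and Sema4d) and 20 were not called. Calls needed a 1.4-fold difference or more and an adjusted p no higher than 0.2, which are the study's thresholds, in the quasi-likelihood test of edgeR over 15762 genes. Among those 15762 genes, 12.8% rose, 8.04% fell and 20.9% did either, beside 22.6%, 12.9% and 35.5% of the members. Ligands and receptors were called about equally often, 7 of 20 ligands (35%) and 4 of 11 receptors (36.4%). The median log2 fold change was 0.13 for ligands, 0.19 for receptors and 0.00073 for all tested genes, and the median of its absolute size was 0.37, 0.45 and 0.22. Both mutant libraries lay beyond both WT libraries for 23 of 31 members (74.2%), 13 of 20 ligands and 10 of 11 receptors, beside 62.5% of all tested genes. Tested against a change of 1.4-fold instead of 0 (glmTreat), Nrp1, Nrp2, Sema3b, Sema3d and Sema3g kept their call. Without mutant replicate 2, 2 members in place of 4 were called lower, without mutant replicate 1, 3 ligands in place of 5 were called higher, and without WT replicate 1, 4 ligands in place of 2 were called lower and the ligand median was 0.026.

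**Figure D2:**
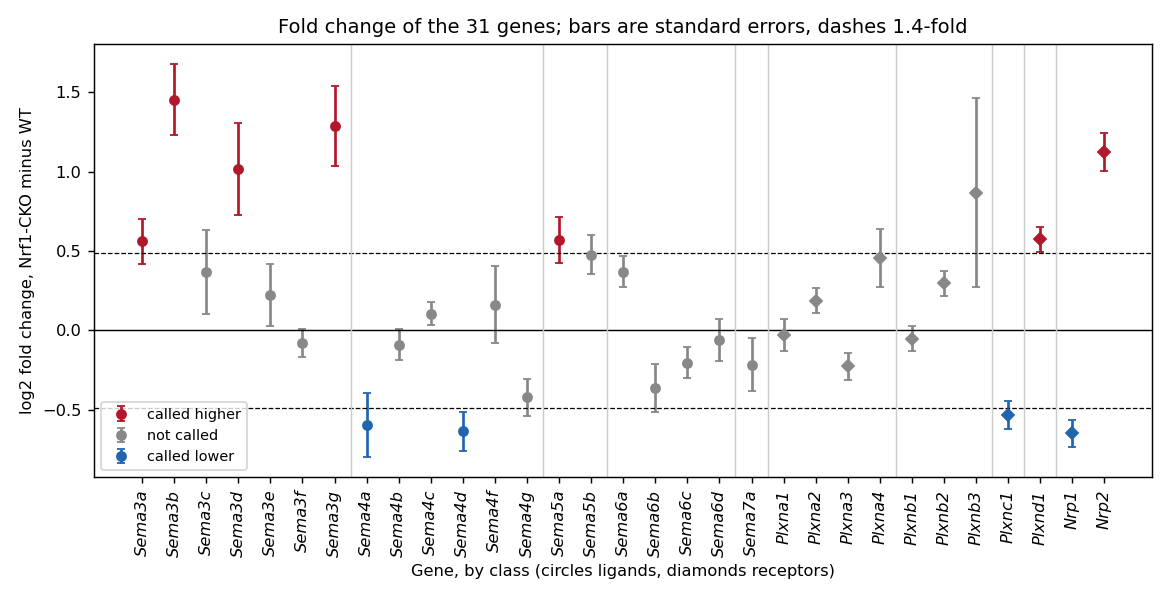
Log2 fold change of each gene, mutant minus WT (points), with its standard error (bars), grouped by class; circles are ligands, diamonds receptors, dashed lines 1.4-fold. Genes called higher are red, genes called lower blue and genes not called grey, and the values run from -0.65 for Nrp1 to 1.45 for Sema3b.

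The sequence around RefSeq start sites was examined for the NRF1 motif core, because NRF1 binds DNA directly. RefSeq promoter windows of GRCm38.p6, which run from 250 bases before to 50 bases after a start site, were matched by symbol for 26 of the 31 genes, in 37 windows. Plxna1, Plxna4, Sema3b, Sema3f and Sema6a had no match. The core GCGCANGCG, searched on both strands, was in 0 of the 26 genes, beside 7.03% of 27025 genes, and the shorter TGCGCA, which can overlap it, was in 0 of 26 beside 8.79%. With shares this low, 0 of 26 genes does not show that the members hold these letters less often than other genes. The members' windows held a median of 15 CpG dinucleotides (range 2 to 42), beside 7 (0 to 67) over 32851 windows. Some windows lay inside the gene rather than at its outermost GENCODE start. That of Sema3a was at chr5:13396534-13396833, in a gene from 13125414 to 13602565, and held 2 CpG. The highest window of Sema4d ended at 51756933, whereas this gene on the minus strand reaches up to 51793747. These letters are absent from these windows, which says nothing of binding elsewhere, including at other start sites of the same genes. The bases before the start are shown for the called genes that had a single window with its RefSeq start within 50 bases of the GENCODE start, 5′ to 3′ on the strand of the gene, with each CG in capitals, to show how CpG varied between members. Of these genes Plxnc1 fell and the others rose. They lie at chr1:62703067-62703284 (+) for Nrp2, chr10:94944846-94945095 (-) for Plxnc1, chr6:115995006-115995255 (-) for Plxnd1, chr14:31217623-31217859 (+) for Sema3g and chr15:32244563-32244809 (+) for Sema5a.
Nrp2: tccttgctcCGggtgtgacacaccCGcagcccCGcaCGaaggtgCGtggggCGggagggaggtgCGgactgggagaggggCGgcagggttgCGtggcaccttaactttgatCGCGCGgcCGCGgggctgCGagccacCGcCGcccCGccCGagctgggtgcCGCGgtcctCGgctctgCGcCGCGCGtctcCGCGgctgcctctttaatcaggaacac
Plxnc1: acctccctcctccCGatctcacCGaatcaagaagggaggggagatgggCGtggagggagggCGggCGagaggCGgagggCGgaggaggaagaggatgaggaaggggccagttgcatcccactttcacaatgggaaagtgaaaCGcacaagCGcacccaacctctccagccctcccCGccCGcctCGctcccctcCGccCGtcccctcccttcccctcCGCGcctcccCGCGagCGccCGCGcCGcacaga
Plxnd1: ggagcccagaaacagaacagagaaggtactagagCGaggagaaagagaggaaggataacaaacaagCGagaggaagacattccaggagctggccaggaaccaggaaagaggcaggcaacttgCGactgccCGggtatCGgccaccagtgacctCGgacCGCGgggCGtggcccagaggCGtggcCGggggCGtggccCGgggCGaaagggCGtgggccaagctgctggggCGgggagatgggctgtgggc
Sema3g: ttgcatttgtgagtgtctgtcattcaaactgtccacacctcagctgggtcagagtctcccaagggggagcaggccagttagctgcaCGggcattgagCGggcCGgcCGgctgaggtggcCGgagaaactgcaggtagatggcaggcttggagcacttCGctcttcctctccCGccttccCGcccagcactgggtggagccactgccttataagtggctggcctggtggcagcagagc
Sema5a: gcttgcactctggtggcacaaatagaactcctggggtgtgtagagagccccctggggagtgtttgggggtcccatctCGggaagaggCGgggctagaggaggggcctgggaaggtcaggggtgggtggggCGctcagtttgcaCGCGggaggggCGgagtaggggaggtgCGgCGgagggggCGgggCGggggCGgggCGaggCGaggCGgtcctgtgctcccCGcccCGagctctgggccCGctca
The count of CG was 28 for Nrp2, 22 for Plxnc1, 16 for Plxnd1, 8 for Sema3g and 17 for Sema5a, and the GC content ran from 61.6% for Sema3g to 72.5% for Nrp2.

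The neuropilins, the ligand-binding subunits for class 3 semaphorins, moved in opposite directions. Nrp1, which binds Sema3A and VEGF and lies on chromosome 8 of GRCm38 from 128358604 to 128503363, fell. It had 72.8 CPM in each WT library and 49.3 and 43.7 CPM in the mutant. The groups did not overlap, and the level was 1.57-fold lower, a log2 fold change of -0.65 (SE 0.08, adjusted p = 0.000839, edgeR). Nrp2, which binds Sema3F, on chromosome 1 from 62703285 to 62818695, rose. Its level was 13.8 and 12.5 CPM in WT and 26.5 and 30.98 CPM in the mutant. Every mutant library had more than both WT libraries, and the level was 2.18-fold higher, a log2 fold change of 1.12 (SE 0.12, adjusted p = 0.000316, edgeR). Per length of exon, Nrp1 exceeded Nrp2 by 6.37 and 7.03 times in the WT libraries and by 2.25 and 1.71 times in the mutant libraries. The neuropilin balance was thus shifted in both mutant libraries, while the summed level of both genes per length was 8.56 ± 0.0748 RPKM (reads per kilobase of exon, scaled to library size as CPM are; SD, n = 2) in WT and 7.18 ± 0.129 in the mutant. RGC markers were lower and endothelial markers higher in the same libraries, at 37.3% and 28.7% and at 221% and 219% of the WT mean, and both cell types are known to express neuropilins. Marker sums of macrophages and microglia, periocular mesenchyme, lens and pigment epithelium were higher too. The part of any of these cells in the shift was not tested.

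Among the plexins, which carry the signal into the cell, Plxnc1 and Plxnd1 were called, again in opposite directions. Plxnc1, the receptor of Sema7A, on chromosome 10 from 94790866 to 94944835, had 82.9 and 84.2 CPM in WT and 61.7 and 53.7 CPM in the mutant. Both mutant libraries lay below both WT libraries, and the log2 fold change was -0.53 (SE 0.09, adjusted p = 0.00270, edgeR), 1.45-fold. Without mutant replicate 2, its log2 fold change of -0.44 was under 1.4-fold and the call was lost. Plxnd1, the receptor of Sema3E and best known from vascular endothelium, on chromosome 6 from 115954811 to 115995005, rose from 93.2 and 86.3 CPM to 130.2 and 137 CPM. The groups did not overlap, and the log2 fold change was 0.57 (SE 0.08, adjusted p = 0.00120, edgeR), 1.49-fold. Per length, Plxnc1 was at 0.777 and 0.853 times the level of Plxnd1 in WT and at 0.415 and 0.343 times in the mutant. Endothelial markers, 6 of 7 of which rose, moved with Plxnd1. So did the marker sums of macrophages and microglia, periocular mesenchyme, lens and pigment epithelium. The part of these cells was not tested.

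The most abundant plexins per length of exon were not called. Plxnb2, a receptor of class 4 semaphorins, had the highest level of all 31 genes, 67.1 ± 1.74 RPKM (SD, n = 2) in WT and 82.4 ± 4.003 in the mutant. It had 509 and 528 CPM in WT and 614 and 658 CPM in the mutant, with no overlap, but the log2 fold change of 0.30 (SE 0.08, adjusted p = 0.0296, edgeR) was smaller than 1.4-fold. Plxnb1, the receptor of Sema4D, had 287 and 288 CPM in WT and 269 and 286 CPM in the mutant, and its log2 fold change was -0.05 (SE 0.08, adjusted p = 0.688, edgeR). The mutant libraries lay below the WT libraries by a small margin only. Plxna1, a signalling partner of the neuropilins, had 224 and 199 CPM in WT and 224 and 191 CPM in the mutant. These values overlapped, with a log2 fold change of -0.03 (SE 0.10, adjusted p = 0.881, edgeR), and 10.7% of its exon bases are shared with the antisense gene Gm26811, from which reads cannot be told apart if strand was not used in counting. The other plexins of class A, which signal for class 3 and class 6 semaphorins, had levels per kilobase of 14.9 (Plxna3), 2.59 (Plxna2) and 0.853 (Plxna4) in WT and 12.7, 2.94 and 1.17 in the mutant. Their log2 fold changes were -0.23, 0.19 and 0.45, and Plxna4 was called at 0.72 only when mutant replicate 2 was left out and, at 0.49, under scaling by upper quartiles. Plxnb3, a receptor of Sema5A, was barely detected, with 22 and 19 reads in WT and 40 and 37 in the mutant. Its log2 fold change of 0.87 had an SE of 0.60 and it was not called. It was called (adjusted p = 0.199, edgeR) only when the test was limited to genes with at least 10 reads in every library, and its log2 fold change was 0.14 on the deposited log2 values.

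The 7 class 3 semaphorins, the secreted ligands that need a neuropilin in most cases, held 4 of the 5 ligands that rose. Of these 7 genes 4 rose and 0 fell, with a median log2 fold change of 0.56, beside 12.8% and 8.04% of all tested genes that rose and fell. In the same mutant libraries the marker sums stood at 221% and 219% of the WT mean for endothelium and 186% and 160% for periocular mesenchyme. They stood at 323% and 389% for macrophages and microglia, 213% and 226% for pigment epithelium and 3114% and 1268% for lens. The part of these cells was not tested. Sema3a, the classical axon repellent, on chromosome 5 from 13125414 to 13602565, had 43.7 and 39.1 CPM in WT and 71.2 and 51.0 CPM in the mutant. The groups did not overlap, but mutant replicate 1 was far above replicate 2. The log2 fold change was 0.56 (SE 0.14, adjusted p = 0.0216, edgeR), and it was 0.30 and not called without mutant replicate 1. Sema3b, a further secreted ligand, on chromosome 9 from 107597674 to 107609229, had 1.94 and 2.37 CPM in WT and 5.16 and 6.65 CPM in the mutant. The groups did not overlap, with a log2 fold change of 1.45 (SE 0.23, adjusted p = 0.00206, edgeR). Sema3g, known from endothelium and on chromosome 14 from 31217860 to 31230352, rose from 1.93 and 1.59 CPM to 3.74 and 4.86 CPM, with a log2 fold change of 1.29 (SE 0.25, adjusted p = 0.00672, edgeR). Its mutant libraries were also above both WT libraries. Sema3d, a further secreted guidance ligand, on chromosome 5 from 12383385 to 12588948, had 1.98 and 2.36 CPM in WT and 5.49 and 3.26 CPM in the mutant, a log2 fold change of 1.01 (SE 0.29, adjusted p = 0.0351, edgeR). As for Sema3a, mutant replicate 1 was the higher, and without it the log2 fold change was 0.59 (adjusted p = 0.231, edgeR) and the call was lost. On the log2 values that the authors normalized, the log2 fold changes tested with limma were 0.66 for Sema3b, 0.53 for Sema3g and 0.42 for Sema3d, and Sema3d was not called.

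Sema3f, the ligand of Nrp2, had the highest level of any semaphorin per length, and it was not called. It had 106 and 104 CPM in WT and 92.1 and 106 CPM in the mutant, which overlapped, with a log2 fold change of -0.08 (SE 0.09, adjusted p = 0.579, edgeR). Sema3c, a ligand of both neuropilins, and Sema3e, the ligand of plexin-D1, had levels per kilobase of 0.425 and 0.473 in WT and 0.549 and 0.552 in the mutant. Their log2 fold changes were 0.37 and 0.22 with overlapping groups, and Sema3c was called at 0.69 only without WT replicate 1. The class 3 genes that rose were thus low next to Sema3f. Per length, Sema3f exceeded Sema3b by 50.02 and 40.1 times in WT and by 16.4 and 14.6 times in the mutant, and it exceeded Sema3a by 6.46 and 7.07 times in WT and by 3.45 and 5.54 times in the mutant. The class as a whole summed to 25.1 ± 0.562 RPKM (SD, n = 2) in WT and 27.2 ± 1.04 in the mutant. Sema3d, Sema3a, Sema3e and Sema3c lie in this order on chromosome 5, with gaps of 536 kb, 423 kb and 3318 kb between neighbours. All 4 had a log2 fold change above 0, as did 7898 of the 15762 tested genes. Of these 4 genes 2 were called, both higher, beside 12.8% of all tested genes called higher. Sema3b and Sema3f, 72.3 kb apart on chromosome 9, differed, with log2 fold changes of 1.45 and -0.08.

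Class 4 semaphorins, which are held at the membrane and mostly bind B plexins, held both ligands that fell. Of the 6 genes 2 fell and 0 rose, with a median log2 fold change of -0.26, beside 8.04% and 12.8% of all tested genes that fell and rose. RGC markers stood at 37.3% and 28.7% of the WT mean in the mutant libraries and photoreceptor precursor markers at 86.4% and 85.4%, and their part was not tested. Sema4d, the ligand of plexin-B1, on chromosome 13 from 51685529 to 51793747, had 38.1 and 41.6 CPM in WT and 28.7 and 22.6 CPM in the mutant. The groups did not overlap, and the log2 fold change was -0.64 (SE 0.12, adjusted p = 0.00589, edgeR), 1.55-fold lower. Without mutant replicate 2 it was -0.48 and just missed 1.4-fold. Sema4a, whose loss is known to cause photoreceptor degeneration, on chromosome 3 from 88435959 to 88461182, had 5.22 and 6.65 CPM in WT and 3.54 and 4.30 CPM in the mutant, a log2 fold change of -0.60 (SE 0.20, adjusted p = 0.0677, edgeR). The groups lay close to each other, and its adjusted p was the highest of the 11 called genes. It was lost without WT replicate 2 (-0.41), without mutant replicate 1 (-0.46), at an adjusted p of at most 0.05 and on the deposited log2 values (-0.30). Sema4c, a ligand of plexin-B2, had 55.8 and 55.7 CPM in WT and 60.0 CPM in each mutant library, a log2 fold change of 0.11 (SE 0.07, adjusted p = 0.347, edgeR). Its libraries were nearly identical within each genotype, and 7.27% of its exon bases are shared with D430040D24Rik on the other strand. Sema4b, Sema4f and Sema4g, further members of the class, had levels per kilobase of 9.76, 0.645 and 3.74 in WT and 9.16, 0.721 and 2.79 in the mutant. Their log2 fold changes were -0.09, 0.16 and -0.42, and Sema4g (adjusted p = 0.0302, edgeR) was under 1.4-fold with all libraries and called at -0.56 without WT replicate 1.

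Both class 5 semaphorins, which carry thrombospondin repeats and are known to confine retinal neurites, had a higher level in both mutant libraries than in either WT library. Over all tested genes, the groups did not overlap, in either direction, for 62.5%, and 12.8% were called higher. Sema5a, on chromosome 15 from 32244810 to 32696341, had 80.0 and 79.9 CPM in WT and 139.8 and 97.4 CPM in the mutant. The WT libraries were nearly equal, whereas the mutant libraries lay well apart. The log2 fold change was 0.57 (SE 0.14, adjusted p = 0.0220, edgeR), and it was 0.29 and not called without mutant replicate 1. Sema5b, its close relative, had levels per kilobase of 2.81 in WT and 3.91 in the mutant, and its log2 fold change of 0.48 (adjusted p = 0.0250, edgeR) fell just short of 1.4-fold. It was called at 0.52 without WT replicate 2 or under scaling by upper quartiles, and at 0.64 without mutant replicate 1. Among the 7 genes that rose, mutant replicate 1 was the higher of the pair for Sema3a, Sema3d and Sema5a, and replicate 2 for Nrp2, Plxnd1, Sema3b and Sema3g. Among the 4 that fell, replicate 1 was the higher for Nrp1, Plxnc1 and Sema4d, and replicate 2 for Sema4a. The marker sums of the mutant replicates also differed, and were higher in replicate 1 for lens (7727 and 3146 CPM in replicates 1 and 2), RGCs (610 and 469 CPM), periocular mesenchyme (382 and 328 CPM) and amacrine and horizontal cells (116 and 83.5 CPM). They were higher in replicate 2 for progenitors (1904 and 2062 CPM), macrophages and microglia (219 and 264 CPM) and pigment epithelium (409 and 434 CPM), and nearly equal for endothelium (146 and 145 CPM) and photoreceptor precursors (353 and 349 CPM). Whether those cells had a part in the differences was not tested.

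**Figure D3:**
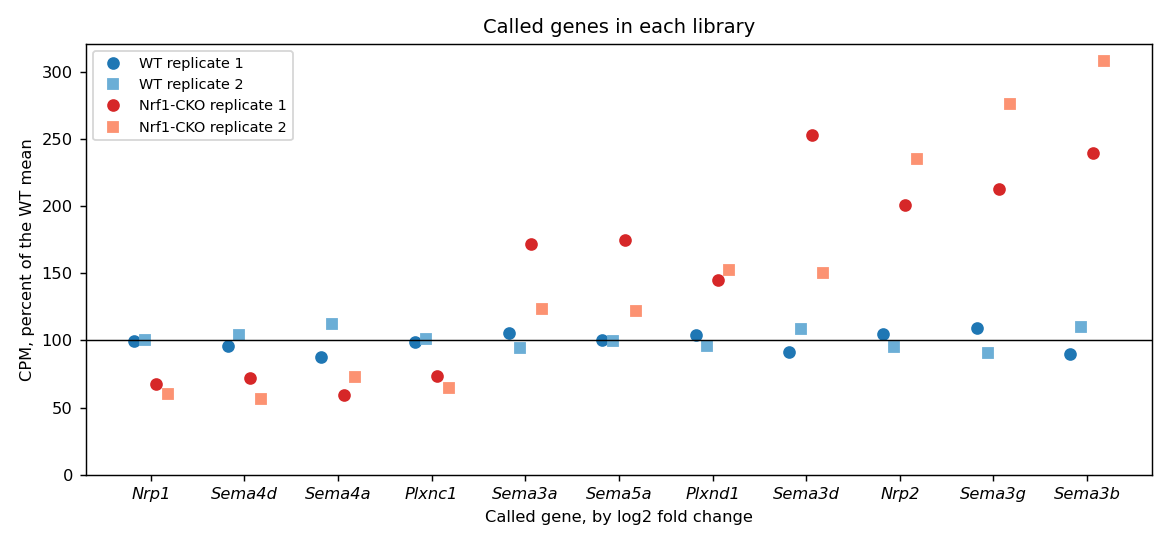
CPM of each called gene as a percentage of its WT mean, with 1 point per library (blue WT, red mutant; circles replicate 1, squares replicate 2). The 4 genes that fell lie between 56.7% and 73.9% in the mutant libraries, and among the 7 that rose the mutant libraries of Sema3d lie at 253% and 151%, those of Sema3b at 239% and 308%, and those of Plxnd1 at 145% and 153%.

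Of the 4 class 6 semaphorins, which act through A plexins, 0 were called, beside 20.9% of all tested genes. Sema6a, known with plexin-A4 for the layering of retinal dendrites, had 88.4 and 94.6 CPM in WT and 128 and 108 CPM in the mutant. Its groups did not overlap, but the log2 fold change of 0.37 (SE 0.10, adjusted p = 0.0250, edgeR) was under 1.4-fold, and it was called at 0.49 only without mutant replicate 2. Sema6b, Sema6c and Sema6d, the other members, had levels per kilobase of 4.44, 8.56 and 2.08 in WT and 3.46, 7.44 and 1.99 in the mutant. Their log2 fold changes were -0.36, -0.20 and -0.06, and Sema6b was called at -0.55 only without WT replicate 1. Sema7a, the ligand of plexin-C1 that is anchored to the membrane by a lipid, had 2.58 and 2.22 RPKM and a log2 fold change of -0.22. Its groups overlapped.

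Added over all members of a role, levels per length differed little between genotypes. The 20 ligands summed to 92.8 ± 4.93 RPKM (SD, n = 2) in WT and 95.9 ± 1.45 in the mutant, and the 11 receptors to 169.8 ± 0.260 and 184 ± 0.959. The ligand sums overlapped between genotypes, whereas both mutant receptor sums (183 and 184) were above both WT sums (169.9 and 169.6), and the level of Plxnb2 alone differed by more than these sums. The order of the receptors was nearly the same in both genotypes, with Plxnb2, Plxnb1 and Plxna1 on top, except that Plxnd1 passed Plxna3. Among ligands, Sema3f stayed first, and Sema6a and Sema4c, the next in order, changed places by less than the spread of Sema6a in the mutant.

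**Figure D4:**
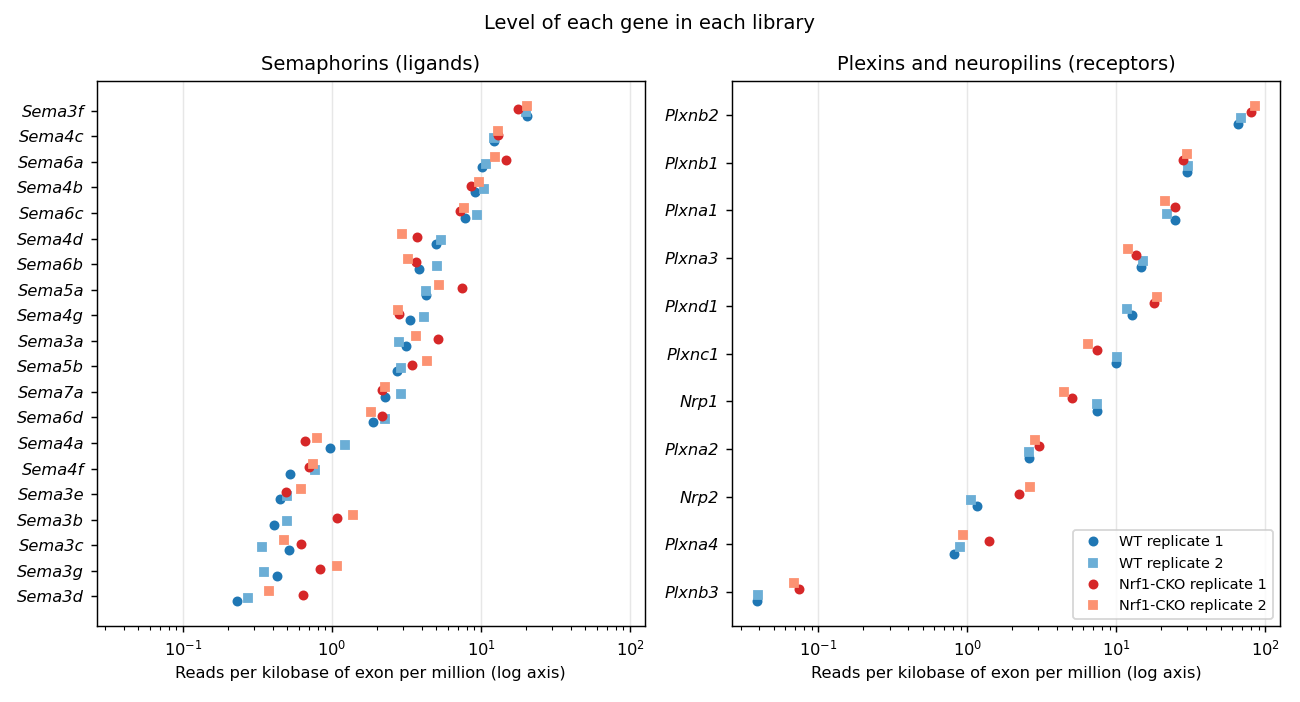
Level of each gene in RPKM (log axis), with 1 point per library (blue WT, red mutant; circles replicate 1, squares replicate 2), ligands on the left and receptors on the right, ordered by their WT mean. Levels span from 0.0391 for Plxnb3 to 67.1 for Plxnb2 in WT, and the class 3 genes other than Sema3f and Sema3a are among the lowest ligands.

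A list of 50 genes that work with semaphorins was measured in the same fit, and all 50 were tested. Of these 12 fell and 6 rose (24% and 12%, beside 8.04% and 12.8% of all tested genes), with a median log2 fold change of -0.07. Among the 15 co-receptors and other neuropilin ligands, 5 fell and 4 rose. Chl1, L1cam and Nrcam, adhesion molecules that join neuropilins in the receptor, and Cntn2, an axonal adhesion molecule, all fell. Their log2 fold changes were -1.80 (adjusted p = 0.0181), -1.56 (adjusted p = 0.000223), -0.62 (adjusted p = 0.00177) and -1.66 (adjusted p = 0.000102) in edgeR's test. Chl1 was low, with 130 and 191 reads in WT and 36 and 60 in the mutant, and the SE of its log2 fold change was 0.44. L1cam, the partner of Nrp1 in the Sema3A receptor, had 89.9 and 104 CPM in WT and 38.3 and 27.4 CPM in the mutant, without overlap. The receptors of the VEGF family moved in both directions. Kdr, the main VEGF receptor of endothelium, which pairs with Nrp1 and is also expressed by retinal progenitors, had 199.7 and 211 CPM in WT and 144 and 137 CPM in the mutant and fell (log2 fold change -0.55), whereas Flt1 and Flt4, receptors of the same family, rose (1.06 and 1.31). Of 7 endothelial markers 6 rose in the same libraries. Marker sums of macrophages and microglia, periocular mesenchyme, lens and pigment epithelium were higher too, and the part of these cells was not tested. Vegfa, a ligand of this family, had 86.3 and 93.4 CPM in WT and 88.7 and 84.1 CPM in the mutant, which overlapped. Vegfc, a further ligand, had 4.10 and 3.73 CPM in WT and 6.43 and 5.64 CPM in the mutant. It rose (log2 fold change 0.62, adjusted p = 0.0371, edgeR), whereas the groups of Pgf overlapped. Itga1, a collagen-binding integrin subunit that can also bind Sema7A with Itgb1, rose by 1.32.

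Of the 33 adaptors and effectors, 7 fell and 1, Sh3bp1, a Rac inactivator bound by plexins, rose (log2 fold change 0.72), beside 8.04% and 12.8% of all tested genes. All 5 genes of the collapsin response mediators, proteins that link semaphorin signals to microtubules, fell, Crmp1 by the most with 303 and 336 CPM in WT and 121 and 99.7 CPM in the mutant (log2 fold change -1.53). Most of these genes are also known as general genes of young neurons, and the RGC markers, 8 of 10 lower, moved with them. Their part was not tested. Of the 2 proteases that cleave semaphorins, Furin rose by 0.50 with all libraries, and its call was lost without WT replicate 1 (0.40) or mutant replicate 2 (0.39).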

How the data were processed

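RNA-seq was measured in 2 WT and 2 Nrf1-CKO retina libraries, grouped by their labels, which give genotype and replicate number. The authors aligned reads to mm10 with Tophat (version 2.7.2 in the submitters' processing notes) and deposited whole-number read counts per gene from HTSeq, whose annotation release and strand setting are not given in the sources used here. The authors also deposited normalized values on a log2 scale. The submitters' processing notes name DESeq and limma without a role, so how these values were made is not given in the sources used here, and they were used only in an alternative. The differential step of the study, Cuffdiff, works from alignments, which were not used here. HTSeq's 5 summary rows, 74.0% to 75.0% of entries, stayed out of the analysis.

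Counts of 15762 genes passing filterByExpr (minimum count 10) were scaled with TMM and tested with edgeR 4.0.16 (quasi-likelihood F test, R 4.3.3), with genotype as the only term and Benjamini-Hochberg adjustment over all of them. Scripts were tested on simulated data. Calls needed a 1.4-fold difference or more and an adjusted p no higher than 0.2. The SE is the log2 fold change divided by the square root of F. Levels between genes are CPM per kilobase of the union of exons in GENCODE vM21 (GRCm38). Nothing in the labels says whether the 2 libraries of a genotype came from separate pools of embryos, so p-values measure the spread between these libraries, and PCR copies are not independent molecules. Alternatives used DESeq2 1.42.0, limma 3.58.1, other scalings, filters and thresholds, the replicate number as a block, and each library left out in turn.

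The members, the list of partners and the marker lists were chosen with earlier results of these data known. Every member was named. Called members and the 3 of highest level per kilobase among ligands and among receptors are given with values in every library. Of the partners, the 4 called genes of largest change in each direction were named, with L1cam, Nrcam, Kdr and Vegfa, and any other partner was named after its values were seen. Protein sequences were not analysed here. A further gene of the progenitor list is not reported here.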

Additional observations from a re-analysis of the deposited data

How the results depend on the processing

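With 2 libraries per genotype the spread is poorly known, and genes near 1.4-fold pass or miss it by small shifts. Over the alternatives tried, 12 of 31 members kept direction and side of the threshold, 7 lost a call, 7 gained one and 5, none of them called, changed sign. Tested against 1.4-fold (glmTreat), 1 member was called lower and 4 higher (0 ligands and 1 receptor lower, 3 ligands and 1 receptor higher), beside 743 and 1188 of all genes in place of 1268 and 2024. On the deposited log2 values with limma, 722 genes fell and 941 rose, 1 ligand fell, 3 partners rose and the receptor median was 0.14. At an adjusted p of at most 0.05, 1 ligand fell. Leaving out each library in turn gave 2 to 6 members lower and 5 to 9 higher, 1 to 4 ligands lower and 3 to 6 higher, 1 to 2 receptors lower and 2 to 3 higher, and medians of 0.026 to 0.14 for ligands (lowest without WT replicate 1) and 0.13 to 0.23 for receptors. In these fits the lone library is assumed to vary like the pair. The sign of Plxna1 turned under upper-quartile scaling (0.013). With each library left out in turn, log2 fold changes ran from -0.15 to 0.082 for Plxna1, -0.19 to 0.019 for Sema3f, -0.19 to 0.019 for Sema4b, -0.087 to 0.47 for Sema4f, -0.20 to 0.076 for Sema6d and -0.11 to 0.0042 for Vegfa. The cause was not tested. No scaling moved the median of all genes by more than 0.040. Deviations of libraries with the same replicate number had a correlation of -0.0042 over genes. No shared shift was seen, but this does not settle whether the samples were made as pairs. With the replicate number as a block 4 members fell and 7 rose and no member's call changed. No alternative with a pseudocount was run, since the authors had already put these values on a log2 scale.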
